A study of Mus musculus with 7 samples.

Results

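The genes described here are 30 genes of cholesterol synthesis, uptake, transport, storage and efflux, compared between WT and Tardbp KO mammary glands on lactation day 1. They were listed by their known role, with earlier results of these data known. The list holds 20 enzymes of synthesis and 10 genes that carry, store, export or sense cholesterol. Of the 30 genes, 29 were found in the count table of 37310 genes by their current or older mouse symbol, and all 29 were among the 17175 genes tested. Msmo1 is listed under its older symbol, Sc4mol, and Hmgcs1 was not matched and is not analysed here. The results therefore cover 19 synthesis genes and 10 genes of uptake, transport, storage and efflux.

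Tardbp encodes TDP-43, an RNA-binding protein, and the study asked which transcripts differ in the lactating gland when it is lost from the epithelium. The Tardbp KO group is homozygous for a floxed Tardbp allele and carries WAP-Cre, in which the promoter of whey acidic protein drives Cre in luminal epithelial cells from pregnancy into lactation. The WT group has Tardbp wt/wt alleles and, by the study's methods, also carries WAP-Cre, so the transgene is shared by both groups. All mice are of the C57BL/6 strain, and the labels do not give their age. RNA was taken from whole mammary gland tissue, which also holds cells in which WAP-Cre is not active. There were 3 WT and 4 Tardbp KO libraries, numbered here as in the labels. The study counts each library as a mouse, and as the labels name no animals, the p-values below measure the spread between these libraries.

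Cells make cholesterol from acetyl-CoA in 3 stretches. The mevalonate stretch builds isoprenoid units and joins them to farnesyl diphosphate. The squalene stretch joins and cyclises these to lanosterol, and the sterol stretch trims lanosterol to cholesterol. Genes of this pathway are known to be switched on together by sterol regulatory element-binding proteins, SREBPs, when membrane sterol is low, often with the help of the factor NF-Y. When sterol is plentiful, liver X receptors bind oxysterols and switch on export genes such as Abca1 and Abcg1. The lactating mammary gland is known for making some of the cholesterol that enters the milk fat globule and its membrane, and takes up the rest from blood lipoproteins.

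The libraries held 36007737 to 42811337 counts. Scaling factors between libraries (TMM) were 0.781 to 0.909 in WT and 1.00 to 1.23 in Tardbp KO. Tardbp itself had 187 ± 32.6 CPM (counts scaled to a fixed library total) in WT (SD, n = 3) and 188 ± 28.2 CPM in Tardbp KO (SD, n = 4). Counts per gene do not resolve the floxed exons, so the deletion could not be checked in these data. The study reports loss of TDP-43 protein from the mammary epithelium by immunofluorescence, in late pregnancy and in lactation. All 4 markers of secretory luminal cells were detected in every library, with a summed level of 199175 to 291744 CPM in WT and 63415 to 141312 CPM in Tardbp KO, and all 4 had a log2 fold change below 0 (median -1.26). The summed level of 6 general luminal markers was 2468 to 3220 CPM in WT and 2467 to 3647 CPM in Tardbp KO. The summed level of 10 lymphocyte markers was 41.4 to 59.8 CPM in WT and 73.7 to 554 CPM in Tardbp KO. In whole tissue, fewer cells of a type and less RNA per cell cannot be told apart.

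All 19 synthesis genes tested had a lower fitted level in Tardbp KO than in WT. The 19 log2 fold changes ran from -2.09 to -0.14 with a median of -1.21, against a median of 0.05 over all 17175 genes, of which 45.7% were below 0. In contrast, 7 of the 10 uptake, transport, storage and efflux genes had a higher fitted level in Tardbp KO, and the median of the 10 was 0.45. The other 3 were Stard4, Npc2 and the uptake receptor Scarb1, and Mylip, among the 7, removes lipoprotein receptors. These values therefore do not show higher uptake. The direction of some synthesis genes depended on scaling and library. With library size alone as the scale, which moves the median of all genes to 0.42, 15 of the 19 synthesis genes were below 0. Without WT replicate 1 it was also 15, and within sequencing lane 4, which held WT replicate 2 and Tardbp KO replicates 3 and 4, it was 13 with a median of -0.21. Each other library was alone in its lane, so lane and library cannot be told apart there. As WT replicate 2 is the only WT library of lane 4, an effect of lane cannot be told apart from the levels of that library.

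No member passed the limits that the study set, an adjusted p under 0.01 with an absolute log2 fold change above 1, in the quasi-likelihood test of edgeR (Benjamini-Hochberg adjustment), and neither did any other gene (0% of 17175). At an unadjusted p under 0.05 in that test, 15 of 19 synthesis genes were lower in Tardbp KO, against 10.7% of all genes. Of the 10 other members, 1 was lower (Stard4) and 2 were higher (Npc1 and Abcg1), and 10.7% of all genes were higher. At an adjusted p under 0.1, Lss, Msmo1 and Mvd were lower, 3 of 19 where 3.22% of all genes were lower, and none of the other 10 members passed, where 2.21% of all genes were higher. That count of 3 was 0 without WT replicate 1, WT replicate 3, Tardbp KO replicate 1 or Tardbp KO replicate 3, and 13 without WT replicate 2. The number of all genes with an adjusted p under 0.1 moved as well, from 933 (5.43%) to 0, 0, 2 and 1 in the first 4 of these fits and to 2244 (12.7%) in the last.

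Other tests on the same counts made more calls. At these same limits, the exact test in edgeR called Mvd, Fdps, Lss and Msmo1 lower, 4 of 19 against 1.44% of all genes lower and 1.04% higher. DESeq2 called these and Sqle, 5 of 19 against 1.63% of all genes lower and 1.68% higher. Neither test called any of the 10 uptake, transport, storage and efflux genes. The study's own list of lipid genes that differ in expression includes Fdps, Lss, Msmo1 and Mvd. Its methods name edgeR but not the test within it. Every Tardbp KO library was lower than every WT library for Mvd, Lss and Hsd17b7, 3 of 19 where 9.62% of all genes did so. Every Tardbp KO library was higher for Npc1 alone of the 29 members, where 9.07% of all genes did so.

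**Figure D1:**
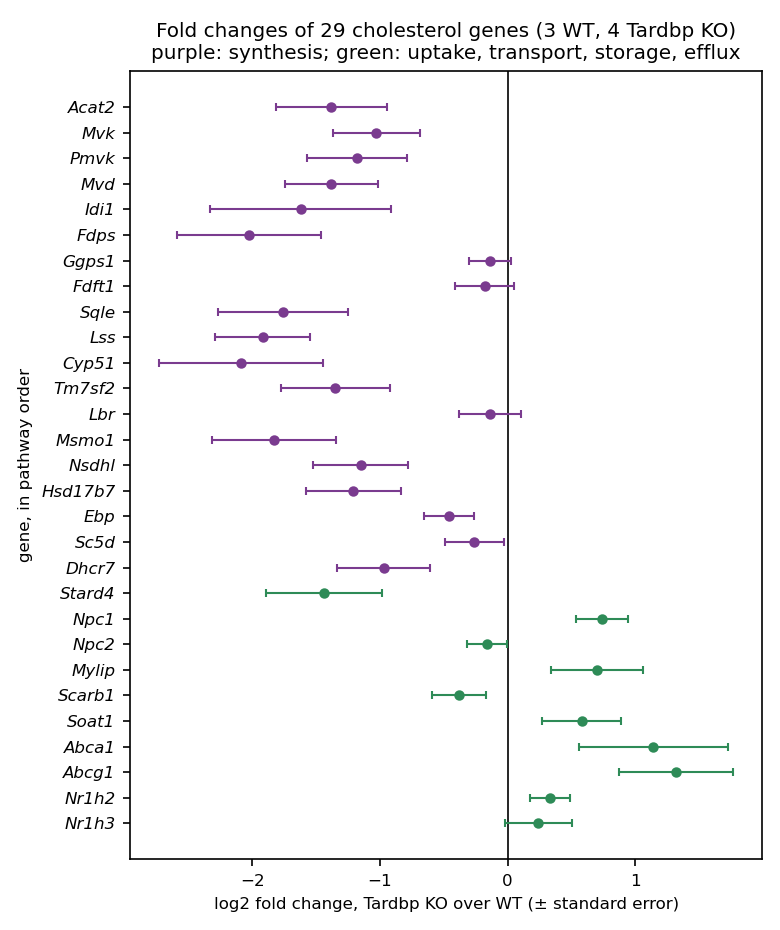
Log2 fold changes of Tardbp KO over WT (horizontal axis; dots, fitted values; bars, standard errors) for 29 genes in pathway order. Synthesis genes (purple) all lie to the left of 0, from -2.09 for Cyp51 to -0.14 for Ggps1 and Lbr, and the other members (green) run from -1.44 for Stard4 to 1.32 for Abcg1.

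Levels differed widely along the pathway when set per kilobase of exon. In WT, the highest level per length among synthesis genes was that of Fdps, with 130 CPM per kb, followed by Mvd with 54.6 and Pmvk with 49.1 CPM per kb. The lowest were Tm7sf2 with 5.29 and Msmo1 with 5.77 CPM per kb, and the ranges over libraries of neighbours in this order overlapped. Among the other members, Npc2 had 105 and Soat1 1.09 CPM per kb in WT. In Tardbp KO the level of Fdps was 31.9 CPM per kb, and the lowest were Msmo1 with 1.63, Lss with 1.88 and Tm7sf2 with 2.08 CPM per kb. The length used is that of all annotated exons, 6144 bases for Msmo1, 10787 for Lss and 3484 for Tm7sf2. Their longest coding transcripts have 2044, 4667 and 1498 bases, so the order of genes depends on the length chosen.

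**Figure D2:**
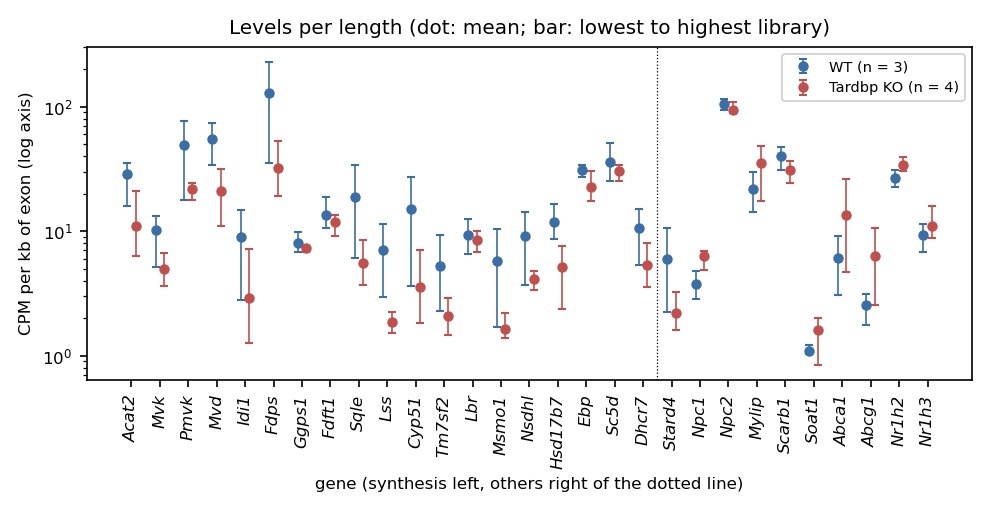
Levels in CPM per kb of exon (vertical log axis) of 29 genes in WT (blue, n = 3) and Tardbp KO (red, n = 4), with dots at the mean and bars from the lowest to the highest library. The WT bars of most synthesis genes are long, reaching from the Tardbp KO range up to several times its mean, and those of Npc2, Scarb1 and Nr1h2 are short.

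The promoters of the genes past an adjusted p of 0.1 are shown first, since SREBPs and NF-Y are known to act at promoters of this pathway. The sequences are the 250 bases before the annotated start, from RefSeq on GRCm38.p6, written 5′ to 3′ on the strand of the gene. Capitals mark CCAAT, the NF-Y box, or its reverse complement ATTGG, and TCACNCCA, the core of a sterol regulatory element, on either strand.
Msmo1 (chr8:64733579-64733828, minus strand): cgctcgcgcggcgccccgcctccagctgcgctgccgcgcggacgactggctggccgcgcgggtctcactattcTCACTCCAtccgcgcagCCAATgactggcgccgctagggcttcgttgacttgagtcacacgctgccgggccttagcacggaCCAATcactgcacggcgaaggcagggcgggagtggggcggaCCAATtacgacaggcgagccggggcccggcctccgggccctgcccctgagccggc
Mvd (chr8:122443423-122443672, minus strand): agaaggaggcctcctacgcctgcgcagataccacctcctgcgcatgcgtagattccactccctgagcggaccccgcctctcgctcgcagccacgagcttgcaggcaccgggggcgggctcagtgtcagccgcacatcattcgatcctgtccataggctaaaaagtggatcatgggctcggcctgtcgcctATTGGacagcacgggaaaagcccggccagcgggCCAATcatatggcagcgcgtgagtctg
Lss (chr10:76531355-76531604, plus strand): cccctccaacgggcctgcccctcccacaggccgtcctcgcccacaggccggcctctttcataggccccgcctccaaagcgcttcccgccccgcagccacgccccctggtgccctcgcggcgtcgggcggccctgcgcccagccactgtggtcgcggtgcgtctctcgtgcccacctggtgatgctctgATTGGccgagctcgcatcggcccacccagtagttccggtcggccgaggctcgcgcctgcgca
Msmo1 has 3 NF-Y boxes, the nearest 55 bases before the start, and 1 sterol element core 177 bases before it. Mvd has 2 NF-Y boxes, 27 and 60 bases before the start, and Lss has 1, 62 bases before it.

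RefSeq promoters of 300 bases, which run from 250 bases before the start to 50 after it, were matched for 16 synthesis genes and 6 of the other members. An NF-Y box was found on either strand at 15 of the 16 synthesis genes (93.8%), with Acat2 the exception, and at 3 of the 6 other members (50%). Among 10964 genes tested that had such a promoter, 42.2% held it. The sterol element core was found at Msmo1 alone of the 16 synthesis genes (6.25%) and at none of the 6 others, against 4.68% of genes tested. Only exact matches to TCACNCCA were counted, so sterol elements with other letters are missed and their share is not known here. No promoter of a member held both motifs overlapping each other. These letters are a description of the windows, and binding was not measured.

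In the mevalonate stretch, 6 of the 7 genes had a log2 fold change below -1. Fdps (ENSMUSG00000059743, chr3:88897514-88905881 on NCBIM37), which makes farnesyl diphosphate, had levels in WT replicates 1, 2 and 3 of 281, 43.2 and 157 CPM, and in Tardbp KO replicates 1 to 4 of 66.0, 23.5, 27.2 and 40.8 CPM. WT replicate 2 lay inside the Tardbp KO range, and the log2 fold change was -2.03 (SE 0.564, quasi-likelihood adjusted p = 0.105). Mvd (ENSMUSG00000006517, chr8:124957496-124967322 on NCBIM37), which makes isopentenyl diphosphate by decarboxylation, had 131, 60.3 and 97.2 CPM in WT and 55.5, 28.7, 19.4 and 44.3 CPM in Tardbp KO. The groups did not overlap, although WT replicate 2 and Tardbp KO replicate 1 were close, and the log2 fold change was -1.38 (SE 0.368, quasi-likelihood adjusted p = 0.0956; exact permutation p = 0.0571).

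Acat2, a cytosolic thiolase that joins acetyl-CoA units at the head of the pathway, had 89.5, 40.5 and 88.4 CPM in WT and 24.3, 53.2, 16 and 18 CPM in Tardbp KO. Tardbp KO replicate 2 lay above WT replicate 2, and the log2 fold change was -1.38 (SE 0.438, quasi-likelihood adjusted p = 0.132). The kinases Mvk and Pmvk, which phosphorylate mevalonate in turn, had log2 fold changes of -1.03 and -1.18 (for Pmvk 0.22 within lane 4), with unadjusted p-values of 0.0142 and 0.0150. Idi1, the isomerase of isopentenyl diphosphate, had a log2 fold change of -1.62 with a standard error of 0.709. Ggps1, which makes geranylgeranyl diphosphate for protein prenylation at a branch away from sterols, had a log2 fold change of -0.14 (0.13 within lane 4), and its 7 libraries lay between 16.1 and 23.5 CPM. The median over the 7 genes of this stretch was -1.38.

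Reads of some of these genes are hard to place. In Idi1, 84.6% of the 50-base stretches of the longest transcript also lie elsewhere in the genome, in Fdps 63.2%, in Acat2 37.3%, in Fdft1 22.2% and in Ggps1 18.2%. For the other members this share was at most 1.77%. The levels of those 5 genes are uncertain where reads were shared with near-identical copies, and the effect of this on their fold changes was not tested. Fdft1 also shares 26.9% of its exon bases with Ctsb, and Tm7sf2 15.3% with a neighbouring gene.

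The squalene stretch held some of the largest differences. Lss (ENSMUSG00000033105, chr10:75994333-76019883 on NCBIM37), which cyclises oxidosqualene to lanosterol, had 122, 32.1 and 75.5 CPM in WT and 24, 18, 16.4 and 22.8 CPM in Tardbp KO. The groups did not overlap, and the 4 Tardbp KO libraries lay close together below the lowest WT library. Its fitted level was 3.78-fold lower in Tardbp KO, a log2 fold change of -1.92 with SE 0.375 and an adjusted p of 0.0712 by the quasi-likelihood test, the lowest among the members. The exact permutation test of log2 CPM gave p = 0.0286 for Lss, the smallest that the 35 splits of 3 and 4 libraries allow.

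Sqle, which inserts the oxygen into squalene and is known as a rate-limiting step, had 188, 34.0 and 89.3 CPM in WT and 47.4, 20.6, 22.5 and 32.1 CPM in Tardbp KO. Here Tardbp KO replicate 1 lay above WT replicate 2, and the log2 fold change was -1.76 (SE 0.507, quasi-likelihood adjusted p = 0.111). Fdft1, squalene synthase, stood apart from its neighbours in the pathway, with a log2 fold change of -0.18 and levels of 30.6 to 53.4 CPM in WT and 25.9 to 38.5 CPM in Tardbp KO. Its sign was positive with library size alone (0.22), within lane 4 (0.20) and without WT replicate 1 (0.13).

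In the sterol stretch, Cyp51, the demethylase that acts first on lanosterol, had 116, 15.5 and 62.0 CPM in WT and 30.3, 7.85, 11.4 and 10.9 CPM in Tardbp KO. Its log2 fold change of -2.09 was the lowest of the members, with a standard error of 0.642 and a quasi-likelihood adjusted p of 0.125, and Tardbp KO replicate 1 lay above WT replicate 2. Msmo1 (ENSMUSG00000031604, chr8:67196936-67212589 on NCBIM37), the methylsterol oxidase whose promoter is shown above, had 63.8, 10.4 and 32.2 CPM in WT and 13.4, 8.61, 9.38 and 8.56 CPM in Tardbp KO. Only Tardbp KO replicate 1 exceeded the lowest WT library, and the log2 fold change was -1.83 (SE 0.487, quasi-likelihood adjusted p = 0.0955). Tm7sf2, a sterol reductase, had 32.2, 7.98 and 15.1 CPM in WT and 10.1, 5.06, 7.08 and 6.75 CPM in Tardbp KO, with a log2 fold change of -1.35 (SE 0.427).

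Nsdhl, which works with Msmo1 in removing methyl groups, had 40.8, 10.6 and 27.1 CPM in WT and 13.7, 11.8, 12.1 and 9.55 CPM in Tardbp KO. WT replicate 2 lay within the Tardbp KO range, and the log2 fold change of -1.15 (SE 0.373) was 0.03 within lane 4. Hsd17b7, the keto-reductase of the same demethylation, had 83.9, 44.0 and 54.2 CPM in WT and 38.8, 32.2, 12.2 and 21.9 CPM in Tardbp KO. These groups did not overlap, and the log2 fold change was -1.21 (SE 0.371, quasi-likelihood adjusted p = 0.125; exact permutation p = 0.0571). Dhcr7, the last reductase of this route, had a log2 fold change of -0.97 with 13.4 to 30.6 CPM in Tardbp KO and 20.3 to 56.9 CPM in WT.

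The remaining sterol genes had smaller differences. Ebp, the sterol isomerase, had a log2 fold change of -0.46, and Sc5d, the sterol desaturase, -0.26. Lbr, a nuclear envelope protein that also reduces sterols, had -0.14. Lbr and Sc5d had the opposite sign within lane 4, with 0.39 and 0.36. Lbr and Tm7sf2 carry the same sterol reductase activity, and in these libraries their levels were 30.2 ± 6.18 and 7.24 ± 2.08 CPM in Tardbp KO (SD, n = 4) against 33.3 ± 10.9 and 18.4 ± 12.4 CPM in WT (SD, n = 3). The difference between the fold changes of these genes was not tested.

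**Figure D3:**
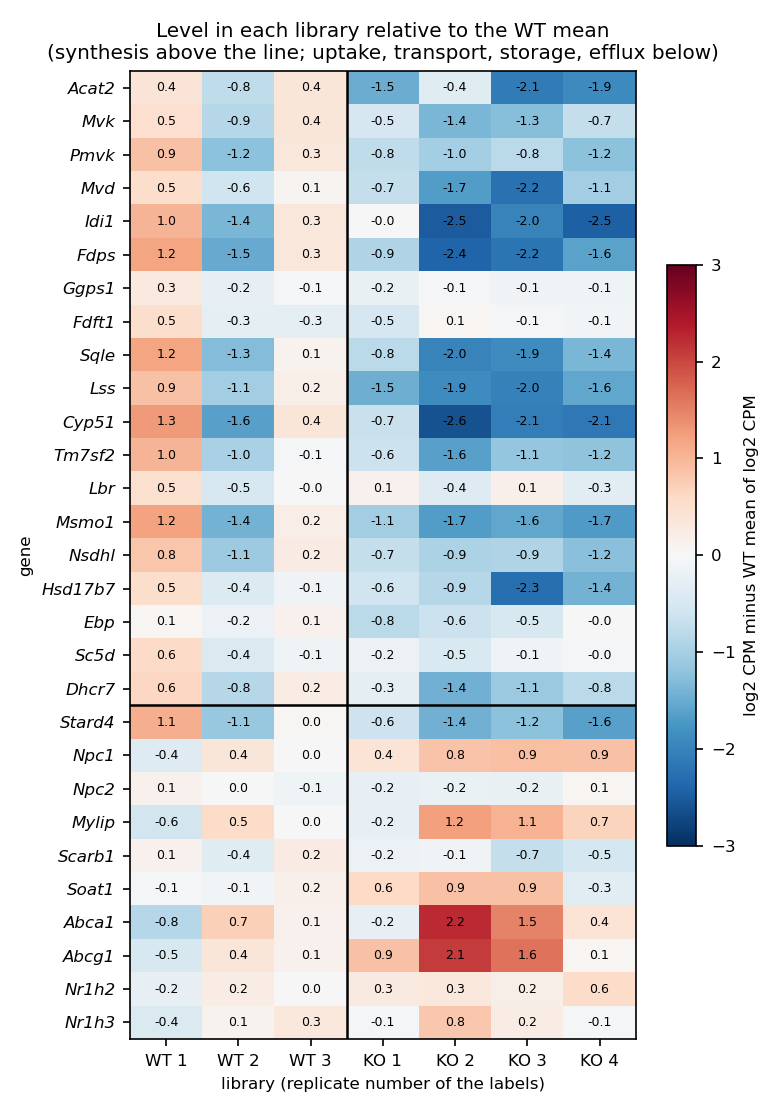
Level of each of 29 genes (rows, synthesis above the horizontal line) in each library (columns, WT left and Tardbp KO right), as log2 CPM minus the WT mean, in blue where lower and red where higher. WT replicate 2 is blue for nearly all synthesis genes, and Abca1 and Abcg1 are reddest in Tardbp KO replicate 2.

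The synthesis genes varied together from library to library, also within WT. WT replicate 2 was the lowest WT library for all 19 genes, and for 16 of them it lay within or below the Tardbp KO range. WT replicate 1 was above all Tardbp KO libraries for all 19 genes, and WT replicate 3 for 15. The median of the 19 genes, relative to the WT mean on the log2 scale, was 0.63, -0.86 and 0.18 in WT replicates 1 to 3. It was -0.67, -1.37, -1.28 and -1.23 in Tardbp KO replicates 1 to 4. WT replicate 2 therefore lay below Tardbp KO replicate 1 and above the other 3 Tardbp KO libraries. Leaving out WT replicate 2 gave a median log2 fold change of -1.58, and leaving out WT replicate 1 gave -0.80.

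The markers of secretory luminal cells, which are milk protein genes, had log2 fold changes below 0 as well. Of these 4, 1 had an adjusted p under 0.1 in the quasi-likelihood test, where 3.22% of all genes were lower. The study, in contrast, reports from qRT-PCR on lactation day 1 that several milk protein genes were not affected by Tardbp loss. The reason for this difference was not tested. The summed level of the secretory luminal markers was, in the order of WT replicates, 291744, 199175 and 199873 CPM. In Tardbp KO it was 125709, 86358, 63415 and 141312 CPM in replicates 1 to 4. Lymphocyte markers summed to 415, 73.7, 554 and 123 CPM in Tardbp KO replicates 1 to 4, whose synthesis medians are given above. With the mean log2 CPM of these lymphocyte markers, not their sum, as a covariate the synthesis median was -1.51. With that covariate no gene of the table had an adjusted p under 0.1. The part of secretory cell content in the synthesis differences was not tested.

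**Figure D4:**
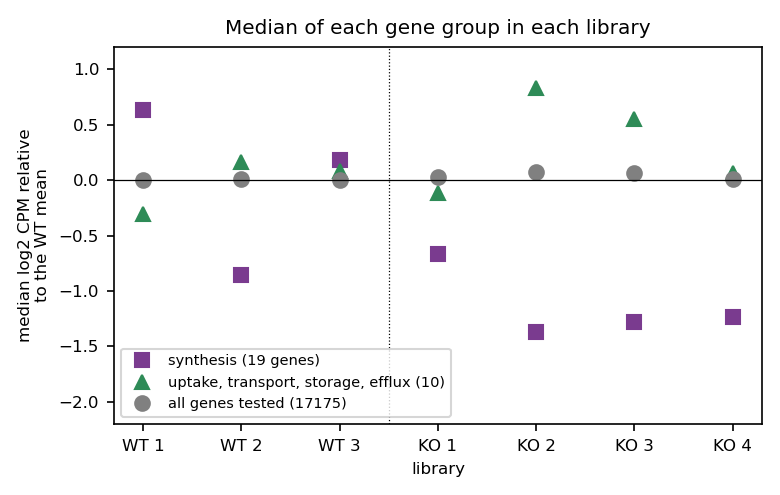
Median log2 CPM relative to the WT mean in each library for 19 synthesis genes (purple squares), 10 uptake, transport, storage and efflux genes (green triangles) and all 17175 genes tested (grey dots). Synthesis medians run from 0.63 in WT 1 to -1.37 in KO 2, while the grey dots stay between 0.00 and 0.07.

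Of the genes that move cholesterol inside the cell, Stard4 went with the synthesis genes and Npc1 did not. Stard4, a soluble carrier of cholesterol between membranes, had 59.3, 12.6 and 28.3 CPM in WT and 18.2, 10.1, 11.9 and 8.99 CPM in Tardbp KO. WT replicate 2 lay within the Tardbp KO range, and the log2 fold change was -1.44 (SE 0.456, quasi-likelihood adjusted p = 0.131). Npc1, the membrane protein that releases cholesterol from lysosomes, had 30.5, 51.2 and 40 CPM in WT and 52.5, 71.8, 73.9 and 72.7 CPM in Tardbp KO. The groups did not overlap, with WT replicate 2 and Tardbp KO replicate 1 next to each other, and the log2 fold change was 0.74 (SE 0.204, quasi-likelihood adjusted p = 0.102; exact permutation p = 0.0571). Npc2, the soluble partner of Npc1 in the lysosome, had 377, 343 and 311 CPM in WT and 289, 298, 291 and 355 CPM in Tardbp KO. Its groups overlapped, with a log2 fold change of -0.16 (SE 0.157), or 0.21 with library size alone.

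Genes of lipoprotein uptake and storage had overlapping groups. Mylip, a ubiquitin ligase that removes lipoprotein receptors and is a known liver X receptor target, had 43.3, 92.1 and 64.0 CPM in WT and 53.5, 148, 132 and 100 CPM in Tardbp KO, with a log2 fold change of 0.70 (SE 0.361). Tardbp KO replicate 1 lay among the WT libraries and the other 3 above them. Scarb1, the receptor that takes up cholesterol esters from high density lipoprotein, had 272, 194 and 298 CPM in WT and 221, 232, 153 and 174 CPM in Tardbp KO, with a log2 fold change of -0.38 (SE 0.212). Soat1, which esterifies cholesterol for storage, had 4.93, 4.89 and 5.80 CPM in WT and 7.88, 9.50, 9.58 and 4.05 CPM in Tardbp KO, with a log2 fold change of 0.58 (SE 0.308). For Soat1, 3 Tardbp KO libraries lay above all WT libraries and replicate 4 below them.

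The efflux pumps had the largest positive fold changes among the members, and their Tardbp KO libraries differed widely. Abca1, which loads cholesterol onto apolipoproteins, had 31.8, 94.6 and 62.7 CPM in WT and 48.5, 271, 160 and 76.8 CPM in Tardbp KO. Its log2 fold change of 1.14 (SE 0.582) passed none of the limits above (quasi-likelihood adjusted p = 0.300), and it was 0.59 without Tardbp KO replicate 2. Abcg1, which passes cholesterol to high density lipoprotein, had 7.14, 12.8 and 10.8 CPM in WT and 18.3, 42.9, 30.8 and 10.4 CPM in Tardbp KO. Tardbp KO replicate 4 lay within the WT range and the other 3 above it, and the log2 fold change was 1.32 (SE 0.447, quasi-likelihood adjusted p = 0.146).

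Both pumps are also known in macrophages and other cells of the gland. The summed level of 6 myeloid markers was 262, 209 and 306 CPM in WT and 411, 546, 447 and 192 CPM in Tardbp KO replicates 1 to 4, with no marker at 0. All 6 had a log2 fold change above 0, with a median of 0.57, where 45.7% of all genes were below 0. None of the 6 had an unadjusted p under 0.05 in the quasi-likelihood test. Tardbp KO replicate 2 was thus highest and replicate 4 lowest of the Tardbp KO libraries in these markers. Abcg1 was likewise highest in replicate 2 and lowest in replicate 4, while Abca1 was highest in replicate 2 and lowest in replicate 1. The summed level of 6 adipocyte markers was highest in Tardbp KO replicate 2 as well, with 4914 CPM against 2486 to 3496 CPM in WT. The part of these cells in the levels of Abca1 and Abcg1 was not tested.

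**Figure D5:**
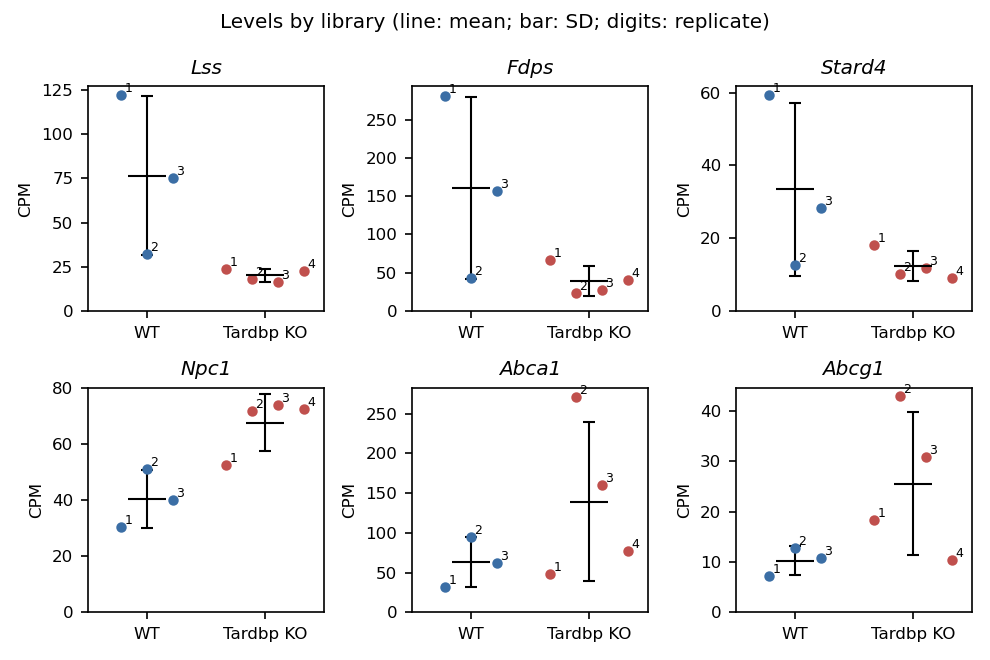
Levels in CPM (vertical axes from 0) of Lss, Fdps, Stard4, Npc1, Abca1 and Abcg1 in each WT (blue) and Tardbp KO (red) library, with the replicate number beside each point, a line at the mean and a bar for the SD. The groups are apart for Lss and Npc1 and overlap for the other 4 genes.

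The liver X receptors themselves differed little. Nr1h2, the receptor found in most tissues, had 76.4, 105 and 91.2 CPM in WT and 110.0, 112, 103 and 132 CPM in Tardbp KO, with a log2 fold change of 0.33 (SE 0.159). Nr1h3, the receptor best known from liver, fat and macrophages, had 17.1, 24.8 and 28.9 CPM in WT and 22.1, 40.4, 26.9 and 22.1 CPM in Tardbp KO, with a log2 fold change of 0.24 (SE 0.261), or -0.02 within lane 4. Both groups overlapped for each receptor.

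The contrast between making and handling cholesterol was largest in Tardbp KO replicates 2 and 3. The median of the 10 uptake, transport, storage and efflux genes, relative to the WT mean, was -0.31, 0.16 and 0.08 in WT replicates 1 to 3 and -0.12, 0.83, 0.55 and 0.06 in Tardbp KO replicates 1 to 4. On the log2 scale of fold changes, the synthesis median minus the median of the other members was -1.66, against -0.45 within lane 4. WT replicate 1 was the lowest WT library for 6 of these 10 genes, where it was the highest WT library for 18 of the 19 synthesis genes. No test was made over the lists.

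A list of 32 other genes of the pathway and its branches was taken through the same fit. Of these, 24 were below 0 and 8 above it, and the median of their log2 fold changes was -0.44. The list was not split into synthesis and handling. Genes of uptake and of transport were among those below 0, and transport genes were also among those above it. At an unadjusted p under 0.05 in the quasi-likelihood test, 13 were lower and 1 higher, where 10.7% of all genes were lower and 10.7% higher. At an adjusted p under 0.1, 4 were lower and 1 higher, where the shares of all genes were 3.22% and 2.21%. None passed the study's limits. Acat1, a mitochondrial thiolase of ketone and isoleucine metabolism, had 113, 94.0 and 108 CPM in WT and 43.1, 66.8, 63.8 and 55.6 CPM in Tardbp KO, with a log2 fold change of -0.87 (SE 0.172). Insig1, which holds SREBPs in the endoplasmic reticulum and is itself a known SREBP target, had 404, 57.9 and 189 CPM in WT and 33.5, 54.6, 53.6 and 40.2 CPM in Tardbp KO, with a log2 fold change of -2.25 (SE 0.520). For both genes the groups did not overlap, and for Insig1 WT replicate 2 was again the lowest WT library, as for the synthesis genes.

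TDP-43 is known to bind UG repeats in RNA, so runs of at least 3 UG dinucleotides were counted in the longest coding transcript of each gene. Such a run was present in 16 of the 19 synthesis genes (84.2%) and 8 of the 10 other members (80.0%), against 71.5% of 15112 genes tested that had a transcript. The longest run of any member held 5 dinucleotides, and none had a run of 10 or more, which 3.65% of those genes had. The longest runs are shown with 6 bases on each side, with the run in capitals, and both lie in the 3′ untranslated region.
Mvd: guccauUGUGUGUGUGggugcc
Hsd17b7: caagacUGUGUGUGUGcacauu
The median number of UG dinucleotides in such runs was 1.78 per kb in synthesis genes, 1.63 per kb in the other members and 1.43 per kb in all genes. Fdps, Tm7sf2 and Sc5d held no run, with log2 fold changes of -2.03, -1.35 and -0.26. These are counts of letters, and binding was not measured.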

How the data were processed

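RNA from whole mammary gland at lactation day 1 was sequenced by the authors from TruSeq libraries of 3 WT and 4 Tardbp KO mice. The authors deposited whole-number counts per gene, made with STAR and featureCounts 1.4.6-p5 on NCBIM37 (mm9) with GENCODE vM1. The STAR version is 2.5.2a per the submitters' processing notes, and the methods name another. Settings for strand and multiply mapped reads are not given in the sources used here.

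The 37 mitochondrial and 580 ribosomal genes, and genes without 5 counts in 4 of the 7 libraries, were removed. The 17175 remaining genes were fitted with edgeR 4.0.16 (TMM, quasi-likelihood F-test, Benjamini-Hochberg) at the limits the methods state. The exact and likelihood ratio tests in edgeR and DESeq2 1.42.0 were alternatives, and edgeR's F-test was tested on simulated data. CPM values are TMM scaled. The permutation test of log2 CPM (prior count 2) is exact and two-sided over 35 splits. Members had 131 to 14233 counts per library, and no error of counting alone is given.

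The members and lists were chosen with earlier results of these data known. All members are named, with the value in every library for the 10 synthesis genes of lowest p and for the 10 other members. Of the 32 other pathway genes the 3 of lowest p are named, and the values of 1 of them are not reported here. R 4.3.3 and Python 3.11.15 were used.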

Additional observations from a re-analysis of the deposited data

Results flagged for a closer look

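Within the 4 Tardbp KO libraries, 5 of the 29 members had a library far from the others by Dixon's test. The test marks about 1 group in 20 where values are normal and groups independent. The synthesis genes varied together, and the share of all genes marked is not given here, so an excess among the members was not tested. In Tardbp KO replicate 1, Idi1 had 20.6 CPM against 3.64 to 5.16 CPM in the others. Cyp51 had 30.3 CPM there against 7.85 to 11.4 CPM, and Msmo1 13.4 CPM against 8.56 to 9.38 CPM. Npc1 was lowest in the same library, with 52.5 CPM against 71.8 to 73.9 CPM. Npc2 had 355 CPM in Tardbp KO replicate 4 against 289 to 298 CPM in the others. Tardbp KO replicate 1 was thus the library that stood apart for 4 of the 5 genes, and it was the highest Tardbp KO library for 13 of the 19 synthesis genes. WT, with 3 libraries, was not tested.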

How the results depend on the processing

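Under the study's limits the count of synthesis genes called, 0, became 4 with edgeR's exact test, 4 with the likelihood ratio test and 5 with DESeq2, and 3 at an adjusted p under 0.1 without a limit on the fold change. That count of 3, recomputed under the other settings as a choice made after seeing the data, was 6 with library size alone, 7 without a filter on low counts, 13 with the exact test, DESeq2 or the likelihood ratio test, 0 with lymphocyte markers as a covariate, and 0 to 13 when 1 library was left out. Of all genes, 5.43% had such an adjusted p, against 23.0% with library size alone, 4.48% without a filter, 11.7%, 15% and 12.2% with the exact test, DESeq2 and the likelihood ratio test, 0% with the covariate, and 0% to 12.7% when 1 library was left out. For the 10 other members the same count, 0, was 1 with DESeq2 size factors, the upper quartile, TMM without the 10 genes of most counts, no filter, at least 10 counts in every library, filterByExpr or bias-adjusted deviances, 3 with library size alone, the exact test, DESeq2 or the likelihood ratio test, and 0 to 2 when 1 library was left out. The synthesis median of -1.21 was -0.82 with library size alone, -0.21 within lane 4 and -1.58 to -0.80 when 1 library was left out, and the difference between the medians, -1.66, was -0.45 within lane 4. The cause of these shifts was not tested.

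Signs turned in 16 of 638 values of single genes, in 8 genes. Within lane 4 the log2 fold change was 0.22 for Pmvk, 0.13 for Ggps1, 0.20 for Fdft1, 0.39 for Lbr, 0.03 for Nsdhl, 0.36 for Sc5d and -0.02 for Nr1h3. With library size alone it was 0.25 for Ggps1, 0.22 for Fdft1, 0.27 for Lbr, 0.14 for Sc5d and 0.21 for Npc2. When 1 library was left out it ran from -0.26 to 0.02 for Ggps1, -0.32 to 0.13 for Fdft1, -0.35 to 0.13 for Lbr and -0.46 to 0.09 for Sc5d, lowest without WT replicate 2 and highest without WT replicate 1. Of the others, 609 kept their sign and their side of the limits and 13 passed the limits.

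Libraries of the same replicate number did not deviate together in every pair (r = 0.351, 0.0941 and -0.058), and WT replicates 1, 2 and 3 correlated best with Tardbp KO replicates 1, 4 and 2. With the replicate block, 12 synthesis genes and 6 other members had an adjusted p under 0.1, as did 11.8% of all genes, and none passed the study's limits.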
